A study of Homo sapiens with 9 samples.

Results

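Surface antigens that antibody drugs have been raised against, 9 in number, were followed across human oesophageal adenocarcinoma cell lines: EPCAM, NECTIN4, MSLN, CEACAM5, CEACAM6, GUCY2C, GPA33, FOLR1 and F3. They were chosen by name as targets of antibody drugs, with earlier results of these data known. All 9 were found among the 52158 named genes of the deposited count table. RNA was sequenced from ESO-26, ESO-51, FLO-1, JH_EsoAd1, OAC_5.1_C, OACP4_C, OE19, OE33 and SK-GT-4, grown without treatment to 80% confluency. The cell type label of every line is oesophageal adenocarcinoma, the source label is gastric cardia adenocarcinoma, and no genetic change or drug is named for any of them. Each line contributed 1 library to the table, so differences between lines could not be checked against replicates and none was tested. A culture holds tumour cells alone, without the stroma, vessels or immune cells of a tumour, and each line comes from 1 tumour.

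An antibody drug needs its antigen on the cell surface, where it is bound, and antibody-drug conjugates must then be carried into the cell and release a toxic payload. EPCAM is an adhesion molecule of nearly all simple epithelia, and NECTIN4 belongs to a family of immunoglobulin-like adhesion proteins at cell junctions. CEACAM5, known as carcinoembryonic antigen, and CEACAM6 are linked to the outer membrane by a lipid anchor, as are the mesothelial antigen MSLN and the folate receptor FOLR1. GPA33 and GUCY2C are antigens of intestinal epithelium: the first is an immunoglobulin-like glycoprotein, the second the receptor of guanylin, uroguanylin and the heat-stable enterotoxin. F3 is tissue factor, the receptor that binds coagulation factor VII and starts blood clotting. Columnar and intestinal genes are known to appear in the lower oesophagus in Barrett's metaplasia, from which this cancer often arises.

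The libraries held 16801179 (ESO-26) to 69881539 (FLO-1) counts, and a floor of 3 counts corresponded to 0.173 and 0.0400 CPM in these libraries. CPM means counts scaled to a common library total after TMM scaling, a correction for unequal library composition. Mitochondrial genes took 1.48% (ESO-26) to 24.7% (JH_EsoAd1) of the counts. The OE19 line is well known for amplification of ERBB2, but ERBB2 was 185 CPM in its library and 18325 CPM in that of SK-GT-4. A line's name therefore stands below for the library labelled with it, and no library was reassigned. The ESO-26 and OE33 libraries also stood apart: of 10 epithelial marker genes, 10 were at least 4-fold below the median of the other libraries in the first and 8 in the second. Of all genes that reached 1 CPM in some library, 6.30% and 4.17% were. The summed level of the 10 was 165 CPM in ESO-26, 1207 CPM in OE33 and 4629 to 16090.0 CPM elsewhere. Markers of leukocytes summed to at most 3.13 CPM in any library.

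The antigens varied widely between the lines. A gene was called above or below in a library where its log2(CPM + 1) value lay at least 2, a 4-fold difference, from the median of the other 8 libraries. Of the 81 pairs of antigen and library, 17 were above (21.0%), against 4.10% of pairs over all 19719 genes that reached 1 CPM in at least 1 library. Another 20 pairs were below (24.7%), against 2.79% over all genes. All 9 antigens passed that minimum. Their log2(CPM + 1) values spanned a median range of 7.13 from the lowest to the highest library, while the median over all tested genes was 1.95. Each antigen reached at least 16.2 CPM (FOLR1) in its highest library, whereas a tested gene needed only 1 CPM. A gene that peaks near 1 CPM cannot be called at 4-fold on this scale or have a wide range. The list was also chosen with earlier results of these data known. These shares and ranges are therefore descriptive and not a like-for-like comparison. Without ESO-26 and OE33, 11 pairs were above and 14 below, out of fewer than 81 pairs. The share over all genes was not computed for that setting, so these counts are not set against the others. On the authors' deposited FPKM scale 12 were above and 12 below, against 1.62% and 0.780% of pairs over all genes.

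**Figure D1:**
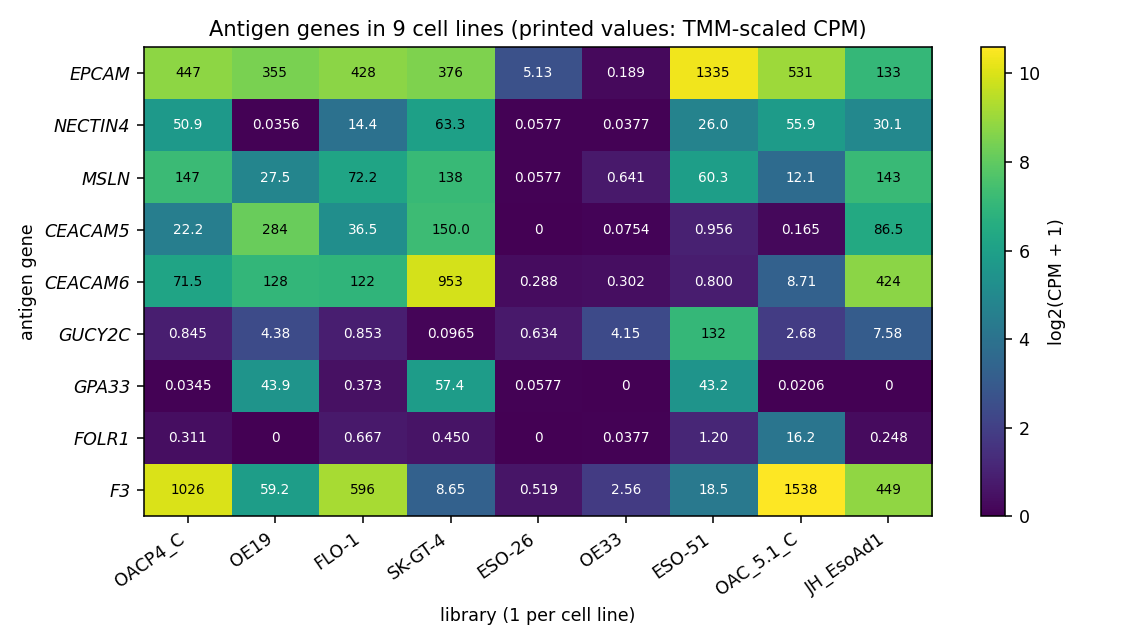
Levels of the 9 antigen genes (rows) in the 9 libraries (columns, 1 per cell line), with colour for log2(CPM + 1) and TMM-scaled CPM printed in each cell. The ESO-26 and OE33 columns are dark throughout, with at most 5.13 and 4.15 CPM, while EPCAM is at least 133 CPM in the other 7 libraries.

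EPCAM, the pan-epithelial adhesion molecule, was at 133 CPM or more in 7 of the 9 lines. It was 1335 CPM in ESO-51, 531 CPM in OAC_5.1_C, 447 CPM in OACP4_C, 428 CPM in FLO-1, 376 CPM in SK-GT-4, 355 CPM in OE19 and 133 CPM in JH_EsoAd1. ESO-26 held 5.13 CPM (89 counts) and OE33 0.189 CPM (5 counts, 95% Poisson interval 0.0612 to 0.440). Both were called below, by -6.04 and -8.40 on the log2(CPM + 1) scale, and no library was called above. ESO-51 lay 2.52-fold over the next library in CPM, and no neighbours in the order of the 9 levels had overlapping counting intervals. Poisson intervals here and below cover counting error only.

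The partners and proteases known to act on EPCAM were read as a list of 14 genes, of which 8 were below in ESO-26 and 5 in OE33. The shares of all tested genes below in these libraries were 6.30% and 4.17%. CLDN7, a claudin that binds EPCAM, ranged from 29.6 CPM in JH_EsoAd1 to 249.6 CPM in ESO-51 among the lines with EPCAM. It was 1.47 CPM in OE33 and only 0.692 CPM in ESO-26. The matriptase gene ST14 was 562 CPM in OAC_5.1_C, 8.48 CPM in OE19, 0.528 CPM in OE33 and, lowest, 0.173 CPM in ESO-26. CD44, an adhesion receptor in the same list, was 738 CPM in OACP4_C and 289 CPM in OE33, but 4.82 CPM in SK-GT-4 with 0.231 CPM in ESO-26. The tetraspanin gene TSPAN8 was 609 CPM in SK-GT-4, 279.8 CPM in OE19 and 149.8 CPM in ESO-51. The sheddase gene ADAM17, which cuts EPCAM, ranged only from 37.7 to 121 CPM.

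NECTIN4 split the libraries into those with the transcript and those almost without it. It was 63.3 CPM in SK-GT-4, 55.9 CPM in OAC_5.1_C, 50.9 CPM in OACP4_C, 30.1 CPM in JH_EsoAd1, 26.0 CPM in ESO-51 and 14.4 CPM in FLO-1. OE19, ESO-26 and OE33 held 1 count each, which is 0.0356 CPM, 0.0577 CPM and 0.0377 CPM. The upper ends of their 95% Poisson intervals were 0.199, 0.321 and 0.210 CPM, far under the 14.4 CPM of FLO-1. All 3 were called below, by -4.81, -4.78 and -4.80 on the log2(CPM + 1) scale, and these calls ended on the deposited FPKM scale, where they were -1.73 each. OE19 differed from ESO-26 and OE33 in keeping EPCAM. It shared with them a low level of the epithelial splicing regulator ESRP1, at 0.107, 0.519 and 0.302 CPM in these 3 libraries. VIM, the mesenchymal filament gene vimentin, was 1679 CPM in OE19, then 616 CPM in OE33, then 246 CPM in ESO-26, and at most 22.0 CPM in the other 6. Yet only 2 of the 10 epithelial markers were below in OE19, and 1 was above. Of 7 mesenchymal markers 2 were above and 2 below there (3.55% and 3.66% of all tested genes). What part ESRP1 and VIM have in the NECTIN4 level was not tested.

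Relatives of NECTIN4 were read as a list of 9 genes that includes NECTIN4 itself, 8 of which were tested. Relatives remained in the lines without NECTIN4: NECTIN2 was 276 CPM in ESO-26, 62.3 CPM in OE33 and 37.5 CPM in OE19. NECTIN3 was 37.6 CPM in the first, 24.1 CPM in the second, but 0.178 CPM in OE19. CADM1, an adhesion gene of a neighbouring family, was 53.2 CPM in OE33, 12.9 CPM in ESO-51 and 4.61 CPM in JH_EsoAd1, and at most 0.579 CPM elsewhere. NECTIN1 was 169 CPM in JH_EsoAd1 and 8.48 CPM in ESO-26. In OE19 2 of 8 tested members were below (3.66% of all tested genes), in ESO-26 3 (6.30%) and in OE33 2 (4.17%).

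**Figure D2:**
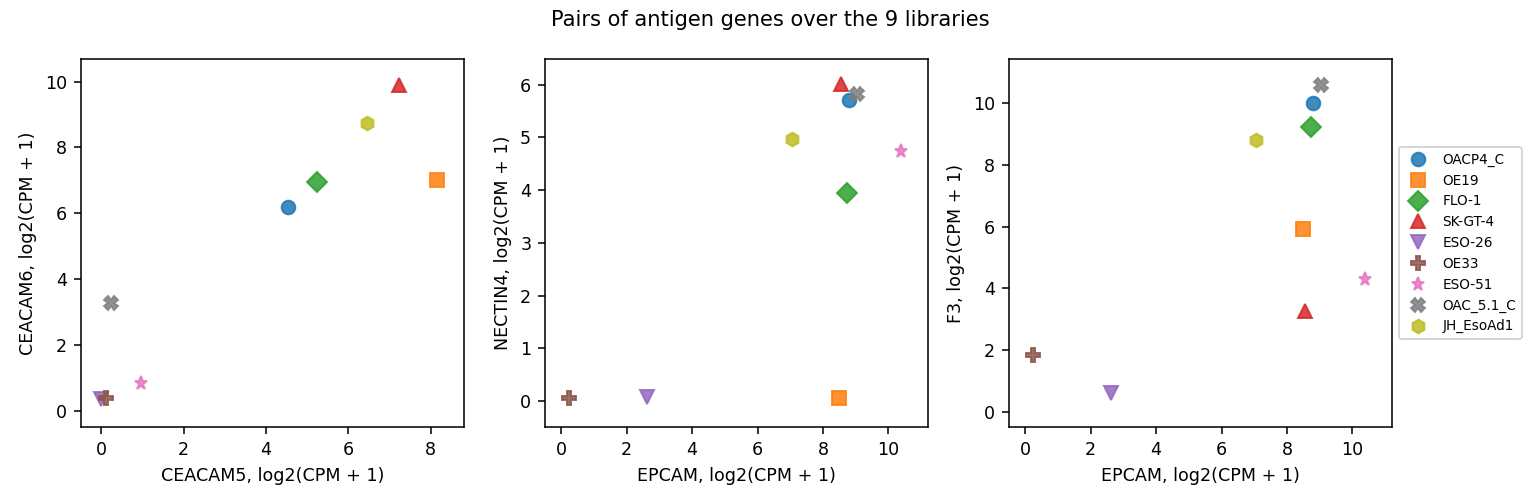
Pairs of antigen genes in 3 panels, each point 1 of the 9 libraries, both axes in log2(CPM + 1). CEACAM6 tends to rise with CEACAM5, with scatter between libraries. NECTIN4 is near 0 in OE19 although EPCAM is 355 CPM there. F3 runs from 8.65 CPM (SK-GT-4) to 1538 CPM (OAC_5.1_C) among the 7 libraries with EPCAM.

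CEACAM5 and CEACAM6 are neighbouring copies of one ancestral gene, and the sequences below show how alike their starts are. Both are the 250 bases before and 50 bases after the gene's start from RefSeq (build GRCh38.p14, strand +), at chr19:41708376-41708675 for CEACAM5 and chr19:41755280-41755579 for CEACAM6. Capitals mark the E-box CACGTG, a motif bound by basic helix-loop-helix factors.
CEACAM5: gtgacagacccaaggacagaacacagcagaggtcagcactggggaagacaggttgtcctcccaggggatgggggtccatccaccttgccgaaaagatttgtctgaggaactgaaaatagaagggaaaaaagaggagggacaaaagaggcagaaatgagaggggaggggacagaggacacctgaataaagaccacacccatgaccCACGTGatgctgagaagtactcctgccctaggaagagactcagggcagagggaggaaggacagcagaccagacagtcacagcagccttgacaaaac
CEACAM6: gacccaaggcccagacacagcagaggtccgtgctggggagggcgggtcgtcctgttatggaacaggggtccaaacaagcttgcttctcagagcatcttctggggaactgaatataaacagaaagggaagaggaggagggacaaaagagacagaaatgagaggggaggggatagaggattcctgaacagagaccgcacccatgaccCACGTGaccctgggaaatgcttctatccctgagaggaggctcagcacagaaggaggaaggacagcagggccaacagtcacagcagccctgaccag
The windows were identical at 81.7% of 289 aligned bases. The E-box began at -46 in CEACAM5 and at -45 in CEACAM6, counting the last base before the start as -1, and 7.43% of 27305 RefSeq promoter windows of this length hold it on either strand. CEACAM6 also held the GC-box letters GGGCGG at -211 (44.6% of windows) and TATAAA at -139 (12.0%), which CEACAM5 did not. These are matches of letters, not measured sites.

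The transcribed parts are also alike, which bears on how reads are assigned. The first coding bases of both genes, from GENCODE release 29 transcripts, were identical at 92.8% of 417 aligned positions. Their longest stretch in common was 65 bases within the coding part of both transcripts, printed here because a read inside it cannot be told apart.
shared coding stretch: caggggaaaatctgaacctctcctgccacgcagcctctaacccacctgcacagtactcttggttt
Of all 50-base words in the CEACAM5 transcript 1.42% also occur in CEACAM6, and no 75-base word does. The read length and the handling of reads with several matches are not given in the sources used here. The choice of counting mode mattered for this pair: over the 9 libraries the mode of the deposited files that keeps more reads at overlapping genes gave 22.7% more CEACAM6 counts and 5.68% more CEACAM5 counts than the union counts used here. For EPCAM, NECTIN4, GUCY2C, GPA33, FOLR1 and F3 both modes gave equal counts, and for MSLN they differed by 0.00794%.

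CEACAM6 was 953 CPM in SK-GT-4, 424 CPM in JH_EsoAd1, 128 CPM in OE19, 122 CPM in FLO-1 and 71.5 CPM in OACP4_C. It was 8.71 CPM in OAC_5.1_C, 0.800 CPM in ESO-51, 0.302 CPM (8 counts) in OE33 and 0.288 CPM (5 counts) in ESO-26. SK-GT-4, JH_EsoAd1, OE19 and FLO-1 were called above (by 2.21 in FLO-1 to 5.17 in SK-GT-4 on the log2 scale) and the last 4 below. The intervals of OE19 and FLO-1 overlapped, as did those of ESO-51, OE33 and ESO-26 between neighbours.

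CEACAM5 was 284 CPM in OE19, 150.0 CPM in SK-GT-4, 86.5 CPM in JH_EsoAd1, 36.5 CPM in FLO-1 and 22.2 CPM in OACP4_C. It was 0.956 CPM in ESO-51, 0.165 CPM in OAC_5.1_C (8 counts) and 0.0754 CPM in OE33 (2 counts), and had 0 counts in ESO-26. Against the ESO-26 floor of 3 counts, OE19 was at least 1644-fold higher. The same 4 libraries as for CEACAM6 were called above, and the same 4 below. The call above in FLO-1 ended with a pseudocount of 5 for both genes (1.70 for CEACAM5 and 1.97 for CEACAM6), and on the deposited FPKM scale those in FLO-1 and JH_EsoAd1 ended for both, with 1.03 and 0.86 for CEACAM5 and 1.65 and 1.96 for CEACAM6. The 4 calls below of CEACAM5 also ended on that scale (-1.65 to -1.79).

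Across the 9 libraries the log2(CPM + 1) values of CEACAM5 and CEACAM6 had a Pearson correlation of 0.92 and a Spearman correlation of 0.93, the highest Pearson value of any pair of antigens. Without ESO-26 and OE33 the Pearson value was 0.88. Per kilobase of deposited gene length, the ratio of CEACAM6 to CEACAM5 was 12.7 in SK-GT-4, 9.78 in JH_EsoAd1, 6.66 in FLO-1, 6.42 in OACP4_C and 0.898 in OE19. It was 106 in OAC_5.1_C, which rests on 8 counts of CEACAM5, and 1.67 in ESO-51, which rests on 43 counts of CEACAM5 and 36 of CEACAM6. With the other counting mode of the deposited files the OE19 ratio was 1.10, so which antigen was higher there turned with the mode. In that mode it was 7.37 (OACP4_C) to 14.5 (SK-GT-4) in the other 4 libraries with both genes at 10 CPM. OE19 was in both modes the line in which the 2 antigens were nearest to each other per length, among the 5 such libraries.

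Other CEACAM genes were high in some of the same lines. With CEACAM5 and CEACAM6 included, 6 of 8 tested family members were above in OE19 (3.55% of all tested genes), 5 in SK-GT-4 (4.54%), 5 in JH_EsoAd1 (4.11%) and 3 in FLO-1 (4.97%). CEACAM18 reached 1 CPM only in OE19 (5.77 CPM) and SK-GT-4 (8.42 CPM), so it was tested only through libraries where it counts as above. These counts are descriptive. CEACAM1, an adhesion and inhibitory receptor, was 256 CPM in OE19, 47.6 CPM in SK-GT-4 but 22.7 CPM in JH_EsoAd1. CEACAM3, best known from granulocytes, was 14.5 CPM in SK-GT-4, 9.73 CPM in OE19 and 8.38 CPM in JH_EsoAd1. CEACAM7, an antigen of colonic epithelium, was 14.5 CPM in OE19 and at most 3.97 CPM elsewhere. The leukocyte markers CD3E, CD68, LAPTM5 and PTPRC were each at or under 0.161 CPM in SK-GT-4. Of the 75-base words of CEACAM5, 0.143% also occur in CEACAM3, so its counts are uncertain.

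MSLN, mesothelin, was present in the 7 lines with EPCAM and nearly absent from the other two. It was 147 CPM in OACP4_C, 143 CPM in JH_EsoAd1, 138 CPM in SK-GT-4, 72.2 CPM in FLO-1, 60.3 CPM in ESO-51. Lower levels were 27.5 CPM in OE19 and 12.1 CPM in OAC_5.1_C. OE33 held 0.641 CPM (17 counts) and ESO-26 1 count. The intervals of neighbours among the highest 3 overlapped, but that of SK-GT-4 (134 to 142 CPM) lay under that of OACP4_C (144 to 150.0 CPM). Below calls fell on ESO-26 (-5.99), OE33 (-5.35) and OAC_5.1_C (-2.35), the last of which ended on the deposited FPKM scale (-1.62), and none was above.

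MUC16, the large mucin to which mesothelin binds and which carries the CA125 antigen, had another order. It was 458 CPM in OAC_5.1_C, 433 CPM in JH_EsoAd1, 96.9 CPM in FLO-1 and 28.7 CPM in OACP4_C, and at most 4.44 CPM elsewhere. JH_EsoAd1 was the only library with both genes over 100 CPM, whereas SK-GT-4 paired 138 CPM of MSLN with 1 count of MUC16. FURIN, a protease that cuts the mesothelin precursor, was 68.5 to 147 CPM in all 9 libraries. The mesothelial markers CALB2, WT1, UPK3B, LRRN4, BNC1 and ITLN1 summed to 0.865 CPM (ESO-26) to 104 CPM (JH_EsoAd1). WT1 was 19.2 CPM in OE33 and at most 0.0412 CPM elsewhere.

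FOLR1, the folate receptor, was close to the floor in most lines. It was 16.2 CPM in OAC_5.1_C, 1.20 CPM in ESO-51, 0.667 CPM in FLO-1, 0.450 CPM in SK-GT-4, 0.311 CPM in OACP4_C, 0.248 CPM in JH_EsoAd1 and 1 count in OE33, with 0 counts in OE19 and ESO-26. OAC_5.1_C was 13.5-fold over ESO-51, the next library, and at least 151-fold higher than the OE19 floor of 3 counts. It was the one call for this gene, above by 3.75 on the log2(CPM + 1) scale. Neighbours from FLO-1 downward had overlapping intervals.

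Of 14 genes of folate uptake and use, 11 were tested, and 0 were called in OAC_5.1_C. That count is near the share over all tested genes there, 4.52% above and 1.41% below. SLC19A1, the reduced folate carrier, ranged from 12.3 CPM in OAC_5.1_C to 43.4 CPM in OE33. The paralogous receptor genes FOLR2 and FOLR3 were at most 0.0690 and 0.165 CPM in any library. GGH, a lysosomal hydrolase of folate chains, was 237 CPM in ESO-26 and 5.56 CPM in OE19.

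GPA33 was present in 3 lines and near 0 in the other 6. It was 57.4 CPM in SK-GT-4, 43.9 CPM in OE19 and 43.2 CPM in ESO-51, and the last pair could not be ordered. FLO-1 held 28 counts (0.373 CPM), OACP4_C 2 counts, ESO-26 and OAC_5.1_C 1 count each, and OE33 and JH_EsoAd1 0 counts. SK-GT-4 was at least 386-fold higher than the JH_EsoAd1 floor. The 3 libraries were called above by 5.80, 5.42 and 5.40, and the highest of the other 6 was 0.373 CPM.

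Among 11736 protein-coding genes that reached 10 CPM in some library, the one most like GPA33 across the 9 libraries was CDH17, an intestinal cadherin, with a Pearson correlation of 0.997. CDH17 was 798 CPM in SK-GT-4, 786 CPM in ESO-51 and 680.5 CPM in OE19, and at most 0.634 CPM elsewhere. ANKS4B, a brush border scaffold gene, followed (0.996). HNF4A, a regulator of intestinal epithelium, was 124 CPM in OE19, 138 CPM in SK-GT-4, 167 CPM in ESO-51, but also 19.6 CPM in JH_EsoAd1 and 7.91 CPM in FLO-1. Such values rest on 9 points that fall into a high and a low set, and with so many candidates close matches are found by search.

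GUCY2C, guanylate cyclase C, was high in ESO-51 alone. It was 132 CPM there, 7.58 CPM in JH_EsoAd1, 4.38 CPM in OE19, 4.15 CPM in OE33, 2.68 CPM in OAC_5.1_C, 0.853 CPM in FLO-1, 0.845 CPM in OACP4_C, 0.634 CPM in ESO-26 and 0.0965 CPM (3 counts) in SK-GT-4. ESO-51 was 17.4-fold over JH_EsoAd1 and was called above by 5.67 on the log2(CPM + 1) scale, and no other library was called. OE19 and SK-GT-4 therefore held GPA33 with little GUCY2C, so the 2 intestinal antigens overlapped in 1 of 9 libraries at 10 CPM.

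Of 11 tested intestinal transcription factors, 6 were above in ESO-51 (3.63% of all tested genes), 4 in OE19 (3.55%) and 4 in SK-GT-4 (4.54%). CDX1 was 84.9 CPM in ESO-51 and 1.10 CPM in OE19, with at most 0.115 CPM elsewhere, and was among the 3 genes most like GUCY2C (Pearson correlation 0.900, after CARMIL2 and HLA-DRB1). CDX2 was 99.9 CPM in ESO-51 and 78.4 CPM in OE19, against 6.85 CPM in SK-GT-4. ISX, an intestinal homeobox gene, was 56.8 CPM in ESO-51 and at most 0.149 CPM elsewhere. It was therefore tested only through ESO-51, the library where it counts as above. The ligand genes of the receptor were scarce: GUCA2A, guanylin, was 2.64 CPM in SK-GT-4, with at most 0.133 CPM elsewhere, and GUCA2B, uroguanylin, was 1.10 CPM in OE19 and at most 0.0267 CPM elsewhere. In ESO-51 none of the 9 tested pathway genes was called, among them the cyclic GMP-dependent kinase PRKG2 (6.14 CPM) and the chloride channel CFTR (0.333 CPM). That count is near the share over all tested genes there, 3.63% above and 2.67% below.

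**Figure D3:**
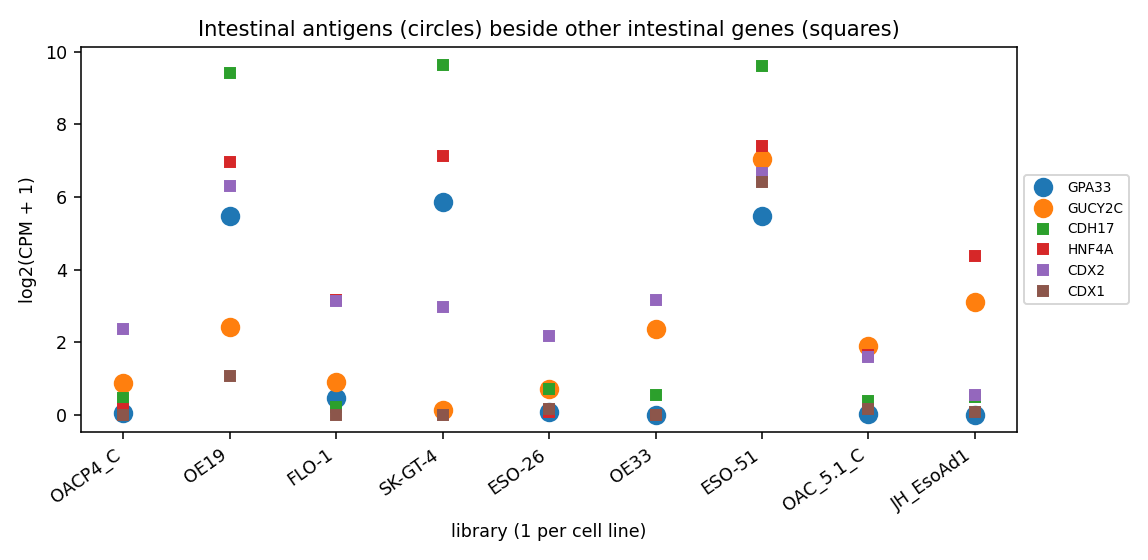
Levels of the intestinal antigens GPA33 and GUCY2C (circles) and of CDH17, HNF4A, CDX2 and CDX1 (squares) in the 9 libraries, on a log2(CPM + 1) axis. GPA33 is high in OE19, SK-GT-4 and ESO-51 together with CDH17 and HNF4A, and GUCY2C reaches 132 CPM in ESO-51, the library with CDX1 at 84.9 CPM.

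F3, tissue factor, spanned nearly as wide a range as EPCAM but in another order. It was 1538 CPM in OAC_5.1_C, 1026 CPM in OACP4_C, 596 CPM in FLO-1 and 449 CPM in JH_EsoAd1. OE19 held 59.2 CPM, ESO-51 18.5 CPM, SK-GT-4 8.65 CPM, OE33 2.56 CPM and ESO-26 0.519 CPM (9 counts). The first 4 libraries were called above (5.49, 4.91, 4.12 and 3.72) and the last 4 below (-3.08 to -6.76), with no overlap of intervals between neighbours. On the deposited FPKM scale the calls in JH_EsoAd1 (1.67) and ESO-51 (-1.90) ended. The 3 libraries with GPA33 had at most 59.2 CPM of F3, and the 4 libraries called above for F3 had at most 0.373 CPM of GPA33.

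The promoter window of F3 is printed because tissue factor is known as a gene induced through AP-1 and Sp1 sites close to its start. It lies at chr1:94541710-94542009 on the minus strand (RefSeq, build GRCh38.p14), and capitals mark 2 matches of the AP-1 letters TGANTCA.
F3: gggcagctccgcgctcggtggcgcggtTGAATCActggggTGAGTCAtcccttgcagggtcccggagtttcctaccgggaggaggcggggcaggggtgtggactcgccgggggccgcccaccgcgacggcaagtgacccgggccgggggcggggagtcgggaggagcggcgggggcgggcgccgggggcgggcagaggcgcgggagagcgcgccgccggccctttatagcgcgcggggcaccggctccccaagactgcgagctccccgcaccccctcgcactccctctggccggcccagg
The AP-1 matches began at -223 and -210, and 7.76% of promoter windows hold at least 1 on either strand. The window also held 4 GGGCGG matches and TATAAA at -28, and its GC content was 77.3%. The TATAAA match and the GGGCGG match at -137 lay on the opposite strand, so the printed strand reads TTTATA and CCGCCC there. Of the 9 antigens 5 had a RefSeq window in the table used: F3, NECTIN4, GPA33, CEACAM5 and CEACAM6.

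Genes of the coagulation pathway were read as a list of 17, of which 14 were tested. In OAC_5.1_C 4 were above and none below, and 4 were also above in OE19 and 4 in FLO-1 (4.52%, 3.55% and 4.97% of all tested genes), although F3 itself was not called in OE19. TFPI, the inhibitor of tissue factor, was 635 CPM in FLO-1, 200.3 CPM in OE19, 108 CPM in JH_EsoAd1, 81.6 CPM in OACP4_C and 68.8 CPM in OAC_5.1_C, and at most 1.67 CPM in the other 4. Those 4 were also the libraries with the lowest F3. TFPI2, a related protease inhibitor, was 239 CPM in FLO-1 and at most 0.634 CPM elsewhere. F2RL1, the receptor cleaved by the tissue factor complex, was 211 CPM in OACP4_C, 177 CPM in OAC_5.1_C and 0.0577 CPM in ESO-26. The ligand gene F7 was 8.74 CPM in SK-GT-4, 2.42 CPM in ESO-51, with at most 0.0754 CPM elsewhere, and F5, a cofactor of clotting, was 239 CPM in SK-GT-4, with at most 2.41 CPM elsewhere. SK-GT-4 thus held the highest F5 and F7 with 8.65 CPM of F3.

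Genes most like the other antigens across the 9 libraries were DLG3, PKP2 and CLDN7 for EPCAM (Pearson correlations 0.981, 0.978 and 0.956) and GALNT3 and RPRD1B for NECTIN4 (0.984 and 0.982). PSME3, DHRS3 and LGALS9 were most like MSLN (0.968, 0.956 and 0.955). For CEACAM5 they were ZNF254, CEACAM3 and PRR12 (0.960, 0.959 and 0.953), and for CEACAM6 PRR12, ARHGEF1 and ZNF254 (0.945, 0.943 and 0.940). TH, RARRES2 and ERP27 came first for FOLR1 (0.977, 0.974 and 0.972), and ERAL1, SUPT6H and the keratin gene KRT7 for F3 (0.985, 0.959 and 0.956). Some of these differ little in level: ERAL1 has its maximum of 35.3 CPM in OAC_5.1_C and a median of 27.4 CPM. KRT7 in contrast was 1649 CPM in OACP4_C and 2.38 CPM in SK-GT-4. The libraries share depth and composition effects, and the correlations describe these 9 libraries only.

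Between the antigens themselves, besides CEACAM5 and CEACAM6, 5 of 36 pairs had a Pearson correlation of at least 0.7, and all 5 values were smaller without ESO-26 and OE33. EPCAM and MSLN had 0.82 over 9 libraries and -0.33 without these 2, and EPCAM and NECTIN4 0.71 and 0.09. MSLN with CEACAM6 had 0.78 and 0.53, MSLN with CEACAM5 0.71 and 0.46, and NECTIN4 with MSLN 0.76 and 0.34. Among the 7 libraries with EPCAM, then, a higher EPCAM level did not come with a higher level of MSLN.

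Levels of different antigens within a line were compared per kilobase of deposited gene length. F3 led in OAC_5.1_C (299 CPM per kb), OACP4_C (199.6 CPM per kb) and FLO-1 (116 CPM per kb), each time followed by EPCAM (111, 94.0 and 89.9 CPM per kb). CEACAM6 led in SK-GT-4 (291 CPM per kb) and JH_EsoAd1 (129.6 CPM per kb), and EPCAM in ESO-51 (280.4 CPM per kb) and OE19 (74.6 CPM per kb). In ESO-51 EPCAM made up 83.6% of the summed level of the 9 antigens, with GUCY2C second at 7.33%. In OE19 the sum was spread more evenly, with 40.7% from EPCAM, 23.8% from CEACAM5 and 21.3% from CEACAM6. The sum was 183 CPM per kb (OE19) to 448 CPM per kb (SK-GT-4) in 7 libraries, but 1.42 CPM per kb in ESO-26 and 1.58 CPM per kb in OE33.

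**Figure D4:**
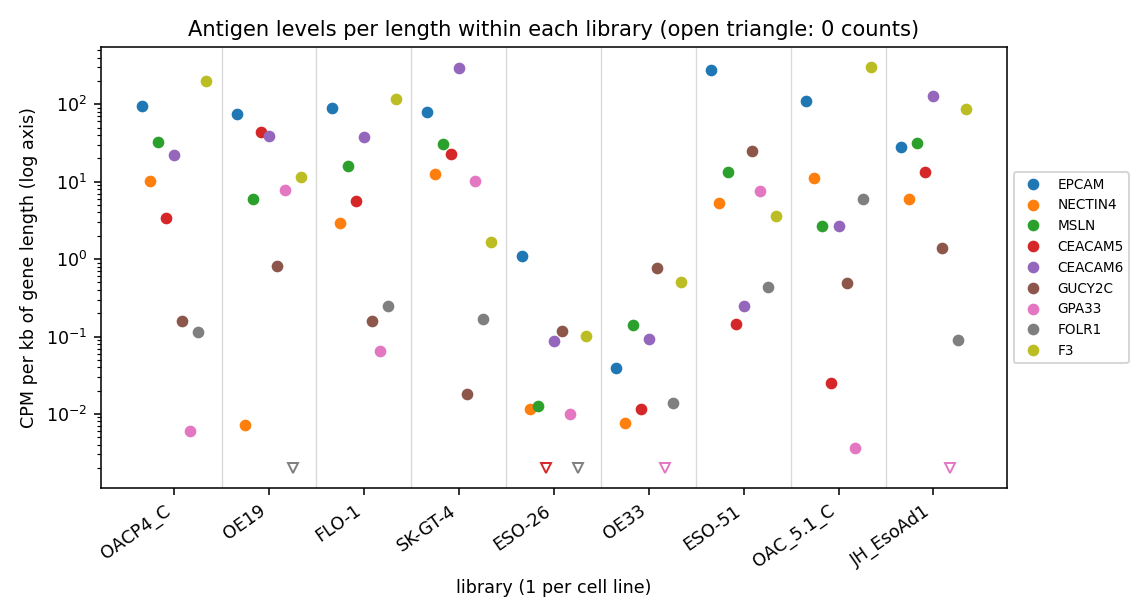
Level of each antigen gene per kilobase of deposited gene length (log axis, CPM per kb) in each of the 9 libraries, coloured by gene, with open triangles at the bottom for 0 counts. Every antigen lies under 2 CPM per kb in ESO-26 and OE33, and the top point is F3, CEACAM6 or EPCAM in the other 7 libraries.

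Counted by line, 6 of the 9 antigens reached 10 CPM in ESO-51, FLO-1, JH_EsoAd1, OACP4_C, OE19 and SK-GT-4, and 5 in OAC_5.1_C, but the sets differed. OACP4_C had 1 antigen above and 0 below (3.16% and 1.66% of all tested genes), FLO-1 3 and 0 (4.97% and 0.999%) and JH_EsoAd1 3 and 0 (4.11% and 1.13%). OE19 had 3 above and 1 below (3.55% and 3.66%), and SK-GT-4 3 above and 1 below (4.54% and 3.14%). ESO-51 had 2 above and 3 below (3.63% and 2.67%), and OAC_5.1_C 2 above and 3 below (4.52% and 1.41%). In ESO-26 and OE33 6 antigens each were below and none above (6.30% and 4.17% of all tested genes below, 3.92% and 4.50% above). The 6 were the same in both: EPCAM, NECTIN4, MSLN, CEACAM5, CEACAM6 and F3. The other 3 antigens had medians of 2.68 CPM (GUCY2C), 0.311 CPM (FOLR1) and 0.0577 CPM (GPA33), which leave little room for a call below.

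ESO-26 and OE33 were not without surface antigens of other kinds. Of 45 further antigen genes under study for antibody drugs, 17 were at 10 CPM or more in ESO-26 and 21 in OE33, against 24 to 31 in the other libraries. In ESO-26 17 of the 43 tested were below and 4 above (6.30% and 3.92% of all tested genes). In OE33 13 were below and 4 above (4.17% and 4.50%). Those above in ESO-26 were the zinc transporter gene SLC39A6 (652 CPM), the growth factor receptor gene FGFR2 (459.8 CPM), STEAP2 (81.4 CPM) and the cadherin gene CDH6 (51.3 CPM). In OE33 they were the adhesion gene ICAM1 (256 CPM), the TNF family gene CD70 (78.6 CPM), PROM1 (8.90 CPM) and LRRC15 (6.03 CPM). CD70 was at most 0.807 CPM in any other library. Per length, SLC39A6 led the 45 in ESO-26 (121 CPM per kb) and ICAM1 in OE33 (46.6 CPM per kb), both above any of the 9 antigens there. Of 7 mesenchymal markers 5 were above in ESO-26, 3 in OE33 and 4 in JH_EsoAd1, a line with EPCAM (3.92%, 4.50% and 4.11% of all tested genes). Their summed level was 3945 CPM in ESO-26, but 723 CPM in OE33. Among the lines with EPCAM it was 2415 CPM in OAC_5.1_C, 1735 CPM in OE19, 956 CPM in OACP4_C and 679.9 CPM in JH_EsoAd1. Each of these sums was mostly 1 gene. That gene was FN1 for OAC_5.1_C (2404 CPM), OACP4_C (945 CPM), JH_EsoAd1 (521 CPM) and ESO-26 (3591 CPM). It was VIM for OE19 (1679 CPM) and OE33 (616 CPM). In OAC_5.1_C and in OACP4_C 1 of the 7 markers was above and 1 below. Of 6 fibroblast markers, 3 were above in ESO-26, with a sum of 329.7 CPM that is mostly COL3A1 (311 CPM), while PDGFRB had 0 counts. In OE33 1 was above and the sum was 28.5 CPM, less than the 88.5 CPM of JH_EsoAd1 (2 above) and the 46.0 CPM of OAC_5.1_C (1 above). Their part in the antigen levels was not tested, and in bulk RNA fewer cells with a transcript and less transcript per cell cannot be told apart.

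**Figure D5:**
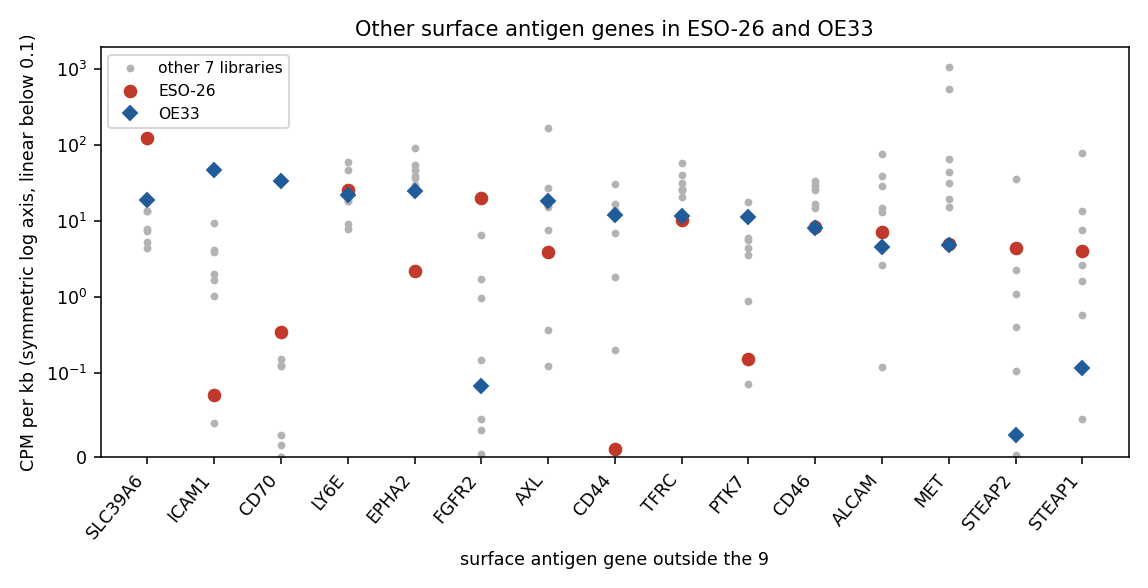
Level per kilobase (CPM per kb, symmetric log axis that is linear below 0.1) of the surface antigen genes ranked 1 to 10 in ESO-26 (red circles) or OE33 (blue diamonds) among 45 further antigens, with the other 7 libraries as grey points. SLC39A6 and FGFR2 in ESO-26 and ICAM1 and CD70 in OE33 lie over all other libraries.

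Of 18 genes that handle an antibody drug once bound (lysosomal proteases, trafficking, export and payload targets), 17 were tested, and 13 to 16 reached 10 CPM in each library. The lysosomal protease gene CTSB, which can cut peptide linkers, was 130.0 to 600.3 CPM, and LAMP1, a lysosomal membrane gene, 60.9 to 366 CPM. The tubulin gene TUBB, the target of auristatin and maytansine payloads, was 149 to 1051 CPM, and TOP1, the target of camptothecin payloads, 38.1 to 302 CPM. Among the export genes, 3 had their lowest value in OE33: ABCC3 ranged from 15.5 CPM to 981 CPM (SK-GT-4), ABCC2 from 0.151 CPM to 127 CPM (SK-GT-4) and ABCG2 from 0.415 CPM to 112 CPM (FLO-1). ABCC1 ranged from 52.9 CPM (ESO-26) to 271 CPM (JH_EsoAd1). ABCB1, the exporter P-glycoprotein, was 0.978 CPM in ESO-51 and had 0 counts in the other 8. SLFN11, linked to sensitivity to DNA-damaging payloads, was 149.9 CPM in OAC_5.1_C, the library with the highest F3 and FOLR1, and 0.289 CPM in SK-GT-4, the library with the highest CEACAM6, GPA33 and NECTIN4. SLC46A3, which moves some payloads out of lysosomes, was 0.707 CPM in OACP4_C and 0.893 CPM in FLO-1, lines with F3 at 1026 and 596 CPM, and 23.9 CPM in ESO-51.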

How the data were processed

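Cell pellets were homogenised and RNA was purified on columns, per the labels' protocols. The design text mentions 3 technical replicates per line, without saying how they were joined into 1 column. FastQC 0.11.7, STAR 2.6.1d, R 3.6.1 and build GRCh37 are named per the submitters' processing notes. The counting program and strand setting are not given in the sources used here. The deposited table holds raw whole-number counts, per its values. The deposited files of each line hold union and intersection counts, the authors' FPKM and a gene length, per the file headers. FPKM recomputed from count, length and file total matched to a relative difference of 3.19e-13. Of 35585 symbols with 1 identifier, 35570 had equal counts in table and files for all 9 libraries. A blank name, at most 0.00965% of counts, was left out. The column OACM5.1_C was taken as OAC_5.1_C.

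Counts were scaled with TMM (edgeR 4.0.16, R 4.3.3; factors 0.831 in JH_EsoAd1 to 1.11 in ESO-51) on genes at 1 CPM in at least 2 libraries, and used as log2(CPM + 1), with Python 3.11.15, numpy 2.4.6, scipy 1.17.1, pandas 2.3.3, matplotlib 3.10.9 and Biopython 1.88. DESeq2 1.42.0 gave an alternative scaling. The calling rule was run on simulated counts with counting error only and the same mean levels in every library, apart from genes changed on purpose. That check covers the working of the rule and not the variation between cultures or lines. Poisson 95% intervals are exact. Members, gene lists and alternatives were chosen with earlier results of these data known. Named genes are the 9 antigens, the 3 protein-coding genes most like each, and in each list the genes with the widest range or called in a library where an antigen is highest. A few others, such as the antigens called in ESO-26 and OE33, were chosen after their values were seen. A few genes picked by this rule are left out of the text. Reference sequences are on GRCh38, not the files' build.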

Additional observations from a re-analysis of the deposited data

How the results depend on the processing

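No paired analysis was possible because each line has 1 library and no number is shared between samples. Of the calls, 17 above and 20 below remained under each of 3 other scalings (DESeq2 size factors, total counts, total counts without mitochondrial genes), and 12 above and 11 below under these, pseudocounts of 0.5 and 5, the deposited FPKM and CPM per kb together. Relative to TMM, total counts shifted the median gene by -0.24 (JH_EsoAd1) to 0.13 (ESO-51) on the log2 scale, and totals without mitochondrial genes by up to 0.22 (OE33). With the deposited FPKM 12 pairs were below, where the share over all genes was 0.780%. FPKM divides by the file total and by gene length before the pseudocount is added. Of the file totals, 25.8% (OE19 and ESO-26) to 77.3% (JH_EsoAd1) lay outside the count table, with 51.0% in FLO-1 and 47.2% in OE33. What part these have in the calls that ended was not tested. A 2-fold threshold gave 28 pairs above by construction. Leaving out 1 library at a time gave 13 to 19 pairs above and 15 to 20 below. Leaving out ESO-26 and OE33 together, chosen after the data were seen, gave 11 above and turned the correlation of EPCAM and MSLN to -0.33. Counts with libraries left out are of fewer than 81 pairs, and the share over all genes was not computed for them. Intersection counts, tried after the data were seen, turned the per-kb ratio of CEACAM6 to CEACAM5 in OE19 from 0.898 to 1.10. Depth limits levels of a few counts, such as NECTIN4 in OE19, ESO-26 and OE33.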
